A study of Sus scrofa with 8 samples.

Results

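TRIM genes encode the tripartite motif proteins, most of which are E3 ubiquitin ligases, and their messenger RNA was followed in the lining of the pig uterus on day 14 of pregnancy. A gene was taken as a member where its Entrez identifier carried a pig symbol made of TRIM and a number, and each gene was read from its transcript of highest mean count. Of the 21064 Entrez genes in the count tables, 38 were members. The RefSeq gene table held 52 such symbols, and the other 14, among them TRIM28, TRIM33, TRIM38 and TRIM56, matched no identifier in the tables and are not analysed here. TRIM5 and TRIM22 also matched none and are not analysed here.

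RNA-seq libraries came from 8 German Landrace gilts, 4 pregnant and 4 non-pregnant controls, with 1 animal per library. All 8 were prepuberal, had follicle growth started with PMSG (750 IU) and ovulation timed with hCG (500 IU) 72 h later. At 24 and 36 h after hCG the pregnant group was inseminated with Pietrain semen and the control group with the sperm-free supernatant of semen of that boar. Pregnant tissue was cut from the reddened zones where embryos attach and control tissue from comparable places, so pregnancy and the choice of zone cannot be told apart. RNA of 3 sites along a horn was pooled per animal. Total counts ran from 28035007 to 41016150 per library. Of all transcripts, 4009 of 18783 tested passed, and 2 libraries stand out in what follows: control replicate 4, which lay nearest to the pregnant animals on the first principal component (−27.8, other controls −46.1 to −42.3, pregnant animals 35.5 to 42.2), and pregnant replicate 2, the deepest.

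A typical TRIM protein starts with a RING finger, which binds the ubiquitin-loaded E2 enzyme, followed by zinc-binding B-boxes and a coiled coil through which the proteins pair. The C-terminal end differs between members and sets what is bound: a PRY-SPRY domain in the largest group, NHL repeats, a PHD finger with a bromodomain, and others. Several members are induced by interferon and act in the defence of cells against viruses. In the pig, the elongating conceptus secretes interferons at about the time of attachment, and the uterine lining responds with interferon-stimulated genes.

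Of the 38 members, 29 had enough reads to be tested, 4 rose and 2 fell. TRIM21, TRIM14, TRIM26 and TRIM39 were higher in pregnant endometrium, and TRIM2 and TRIM44 lower, at an adjusted p of 0.05 (edgeR quasi-likelihood test, Benjamini-Hochberg over all transcripts). The 6 that passed were 20.7% of those tested, beside 21.3% of all transcripts. The 4 that rose were 13.8% beside 11.2% of all transcripts higher, and the 2 that fell 6.90% beside 10.1% lower. The family as a whole was therefore called about as often as any transcript. The median log2 change (pregnant over control) was 0.03 over the tested members and −0.02 over all transcripts tested, and the median absolute log2 change 0.35 and 0.32. In the same 6 genes the 4 pregnant values lay apart from the 4 control values, and in no other tested member did they (20.7% beside 26.1% of all transcripts). Without control replicate 4 the groups lay apart in 10 members (34.5% beside 32.9% of all transcripts). Summed over the members, levels were 689.6 ± 16.9 CPM (counts brought to a common, TMM-scaled library size; mean ± SD, n = 4) in controls and 720.04 ± 47.3 CPM in pregnant animals.

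**Figure D1:**
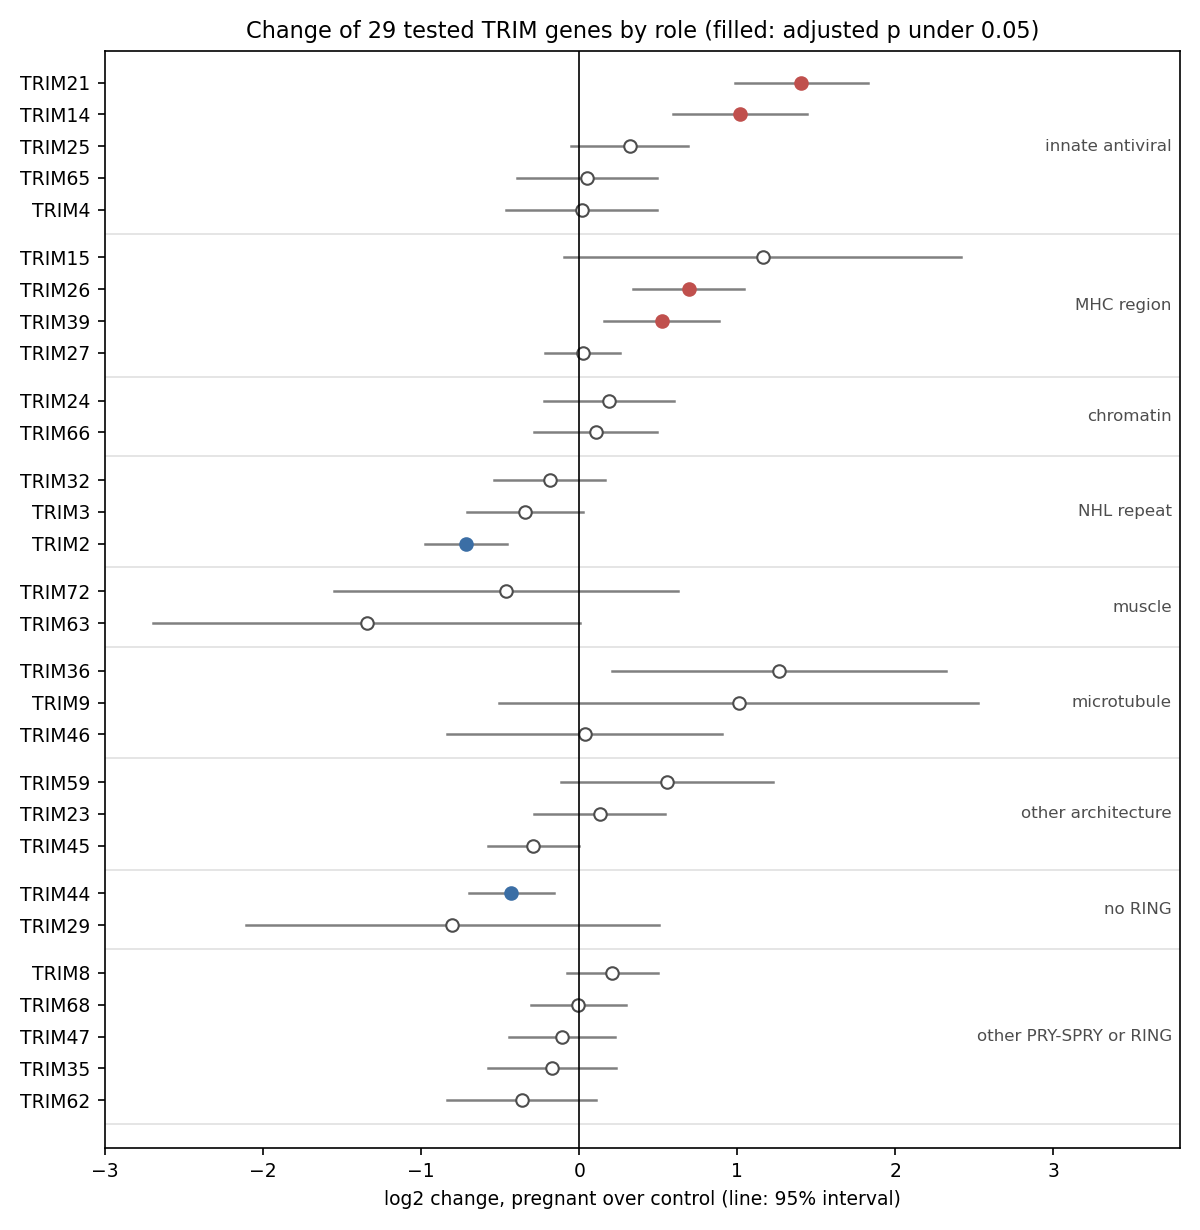
Log2 change (pregnant over control, x axis) of the 29 tested TRIM genes, grouped by role, with 95% intervals from the edgeR fit; red points rose, blue points fell and open points did not pass an adjusted p of 0.05. TRIM21 and TRIM14 have the 2 highest changes among genes that passed, and the widest intervals are those of TRIM9 and TRIM63.

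Among the members known for innate antiviral defence, 2 of 5 tested rose, 0 fell and 3 did not pass (11.2% of all transcripts were higher, and 5 genes are too few to set apart from that share). TRIM21, a cytosolic receptor for the constant part of antibodies and the autoantigen Ro52, had the largest change that passed. Its level was 18.2, 15.3, 14.3 and 19.2 CPM in control replicates 1 to 4 and 33.5, 44.2, 60.6 and 39.1 CPM in pregnant replicates 1 to 4. Every pregnant animal was above every control, and pregnant replicate 3 was the highest. The log2 change was 1.40 ± 0.19 (SE; 2.65-fold, edgeR adjusted p = 5.28e-04; Entrez gene 100302538, Sscrofa10.2 chromosome 9, 6537215 to 6543853, counts over its 6 exons).

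TRIM14 lacks the RING finger and works as an adaptor of antiviral signalling at mitochondria. It stood at 4.92, 5.12, 6.31 and 5.64 CPM in the controls and 8.46, 14.4, 10.9 and 10.7 CPM in the pregnant animals. The groups did not overlap, and pregnant replicate 1 was the lowest of its group. The log2 change was 1.02 ± 0.19 (2.02-fold, edgeR adjusted p = 0.00365; Entrez gene 100151834, chromosome 1, 268088240 to 268114620). TRIM21 and TRIM14 were the 2 members that passed with a change of at least 2-fold, 6.90% of those tested beside 11.2% of all transcripts.

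TRIM25 attaches ubiquitin to the RNA sensor RIG-I, can also act as a ligase for ISG15, and was first described as an oestrogen-responsive finger protein. It was at 35.7, 51.8, 45.7 and 57.1 CPM in controls and 46.3, 63.5, 67.8 and 59.8 CPM in pregnant animals. Pregnant replicate 1 lay within the range of the controls. The log2 difference was 0.32 with a 95% interval of −0.05 to 0.69 (edgeR adjusted p = 0.208), an interval that leaves out a 2-fold change in either direction. TRIM65, which acts on the RNA sensor MDA5, had a log2 difference of 0.05 ± 0.20, and TRIM4, another regulator of RIG-I, 0.02 ± 0.22. The sign of these last 2 turned when single libraries were left out. TRIM69, which can restrict RNA viruses, was too low to test: the controls had 8 reads, 7 of them in control replicate 4, and the pregnant animals 29, with 15 of those in pregnant replicate 1.

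**Figure D2:**
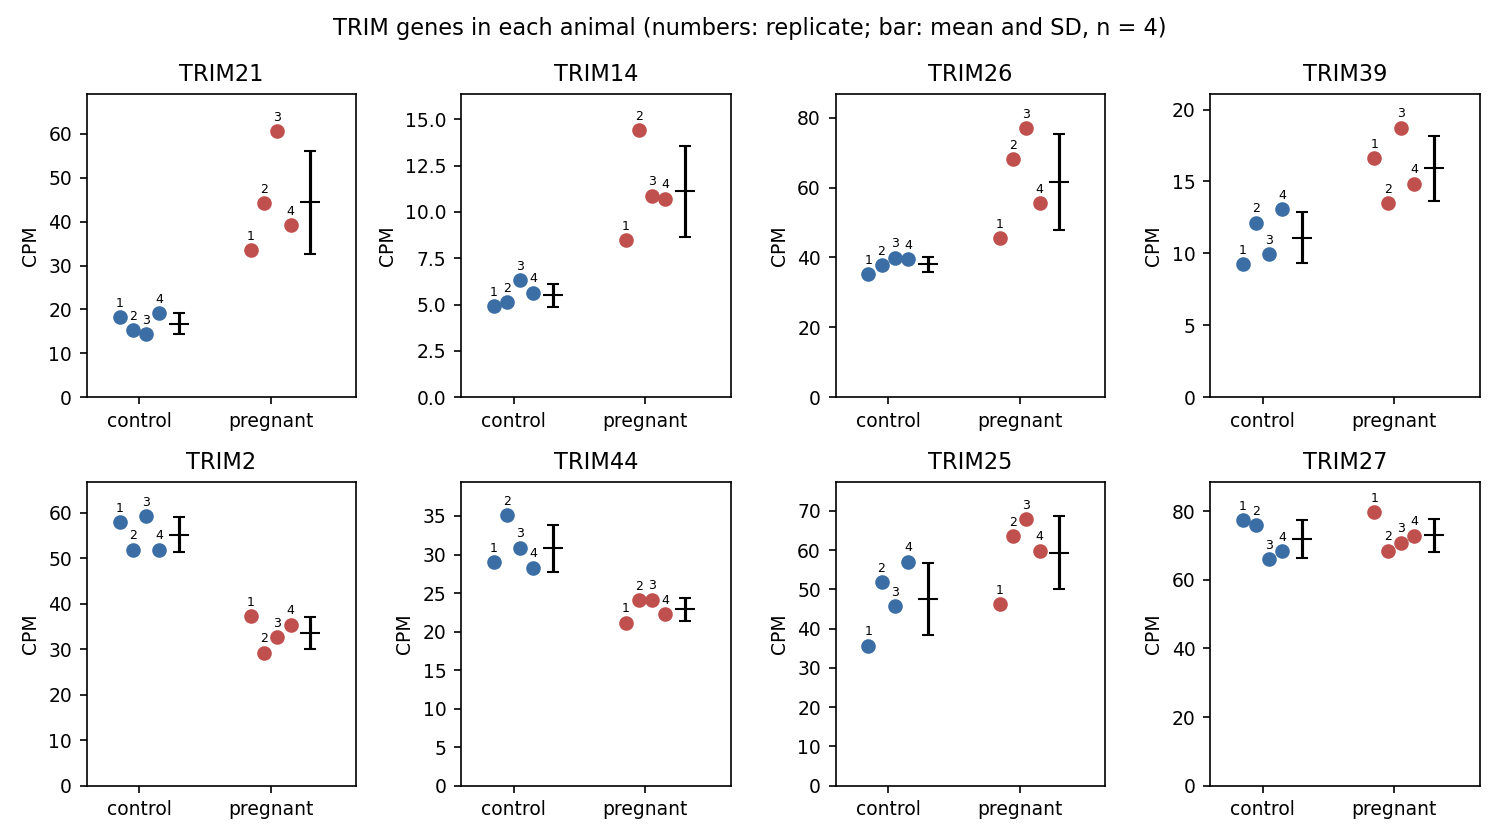
CPM (y axis) of 8 TRIM genes in each animal, with the replicate number above each point and the mean and SD of the 4 animals at its side. TRIM21, TRIM14, TRIM26 and TRIM39 are higher and TRIM2 and TRIM44 lower in every pregnant animal than in any control, while TRIM25 and TRIM27 overlap.

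Of the 7 members that the list placed in or near the major histocompatibility complex, all on chromosome 7 of the deposited annotation, 4 could be tested and 2 rose (11.2% of all transcripts were higher). With limma voom 1 of the 4 passed, and TRIM39 lost its call under 9 of 14 alternatives. TRIM26, a RING ligase with a PRY-SPRY domain that acts on virus-sensing pathways, was at 35.2, 37.7, 39.9 and 39.6 CPM in controls and 45.5, 68.2, 76.9 and 55.6 CPM in pregnant animals. The controls lay close together (coefficient of variation 5.61%) and the pregnant animals spread more (22.4%), with replicate 1 nearest to the controls. The log2 change was 0.69 ± 0.16 (1.62-fold, edgeR adjusted p = 0.0106; Entrez gene 100144460, chromosome 7, 24808447 to 24818321).

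TRIM39, a ligase with roles in cell death and the cell cycle, was at 9.26, 12.1, 9.92 and 13.1 CPM in controls and 16.6, 13.5, 18.7 and 14.9 CPM in pregnant animals. The groups were separated by a narrow gap, between control replicate 4 and pregnant replicate 2. The log2 change was 0.52 ± 0.17 with an edgeR adjusted p = 0.047 (Entrez gene 100151742, chromosome 7, 26719690 to 26730975). This call was lost without any 1 library other than control replicate 4 (adjusted p = 0.0537 to 0.121), in limma voom (0.0518) and in the fit with a replicate block (0.0915).

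TRIM27, a ligase of endosomal sorting, lies 357 kb from TRIM26. It was at 77.5, 75.9, 66.1 and 68.4 CPM in controls and 79.8, 68.5, 70.9 and 72.8 CPM in pregnant animals. The groups overlapped over most of their range, and the 95% interval of the log2 difference of 0.02 was −0.21 to 0.26. TRIM15, 15.2 kb beyond TRIM26, had a log2 difference of 1.16 ± 0.57 that did not pass (edgeR adjusted p = 0.176) on 36 control reads and 80 pregnant reads. The next 3 genes along the cluster were too low to test. Control and pregnant reads were 17 and 26 for TRIM10, known from red cell precursors, and 12 and 33 for TRIM40, a gene of gut epithelium. TRIM31 had 0 reads in all 8 libraries. A count of 0 allows up to 0.0116 CPM over the 8 libraries (3 of 257950093 counts; counting error only).

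Neighbouring members were also compared with each other within each animal. On chromosome 9, TRIM68, a PRY-SPRY ligase described as a partner of the androgen receptor, lies 393 kb from TRIM21 and was at 18.3, 18.8, 19.6 and 20.3 CPM in controls and 17.4, 23.2, 18.4 and 17.6 CPM in pregnant animals. Its log2 difference was −0.01 ± 0.14, with a 95% interval of −0.31 to 0.29. The log2 ratio of TRIM68 to TRIM21 was 0.21 ± 0.20 in controls and −1.19 ± 0.37 in pregnant animals (SD, n = 4), a difference of −1.39. The difference was −0.64 for TRIM27 over TRIM26, −0.94 for TRIM26 over TRIM15 and 0.14 for TRIM65 over TRIM47, on chromosome 12. These 4 differences are descriptions: in a two-sided exact permutation test of 4 against 4 animals, adjusted over the 4 pairs, a pair that alone separates the groups cannot go below p = 0.114, so the test could not call one.

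Of the 3 members with NHL repeats, which bind RNA or protein partners, 1 fell and 2 did not pass. Among all transcripts 10.1% were lower, and 3 genes are too few to set apart from that share. TRIM2, a ligase best known in nerve cells, where it acts on neurofilament light chain, was at 58.0, 51.9, 59.2 and 51.9 CPM in controls and 37.3, 29.3, 32.6 and 35.4 CPM in pregnant animals. The gap between the groups was wide beside the spread within them. The log2 change was −0.71 ± 0.12 (1.64-fold lower, edgeR adjusted p = 0.00161; Entrez gene 100627416, chromosome 8, 80265927 to 80393651). TRIM3, its closest relative, had a log2 difference of −0.35 ± 0.17 (adjusted p = 0.17) and TRIM32, a ligase of muscle, −0.19 ± 0.16 (adjusted p = 0.437).

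Of the 2 tested members listed for lacking a RING finger, apart from TRIM14 and TRIM66, 1 fell. Among all transcripts 10.1% were lower, and 2 genes are too few to set apart from that share. TRIM44, which carries a zinc finger of the kind found in ubiquitin proteases, was at 29.0, 35.1, 30.9 and 28.3 CPM in controls and 21.1, 24.0, 24.2 and 22.2 CPM in pregnant animals. The groups did not overlap, and control replicate 2 was the highest. The log2 change was −0.43 ± 0.12 (edgeR adjusted p = 0.0294; Entrez gene 100524974, chromosome 2, 27636875 to 27737926). The call was lost on leaving out control replicate 2, control replicate 3 or any pregnant animal but replicate 3 (adjusted p = 0.0616 to 0.0814).

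TRIM29, a protein of basal and stratified epithelia, was at 23.9, 18.8, 15.3 and 2.43 CPM in controls and 3.89, 12.1, 10.0 and 8.57 CPM in pregnant animals. Control replicate 4 was below all 4 pregnant animals and the other 3 controls were above them. The log2 difference of −0.80 ± 0.58 did not pass (edgeR adjusted p = 0.366), and without control replicate 4 it was −1.16 and passed (adjusted p = 0.0292, with 0.0292 to 0.679 over all alternatives).

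In the muscle group 0 of 2 tested members passed with edgeR, 0 also at an unadjusted p under 0.05, with 0 by DESeq2 and 1 by limma voom. With edgeR 21.3% of all transcripts passed, and 2 genes are too few to set apart from that share. TRIM63 (MuRF1), a ligase of wasting muscle, was at 2.68, 5.00, 4.28 and 7.28 CPM in controls and 1.63, 0.81, 4.70 and 0.488 CPM in pregnant animals. Pregnant replicate 3 lay among the controls and the other 3 below them. The log2 difference was −1.34 ± 0.61 (edgeR adjusted p = 0.147), −2.31 without pregnant replicate 3 (adjusted p = 0.00956) and −1.83 in limma voom (adjusted p = 0.043, with 0.00956 to 0.285 over all alternatives). TRIM72 (MG53), which reseals torn membranes, had a log2 difference of −0.46 ± 0.49 at under 1 CPM in each animal, and TRIM55 was read 2 times in each group. In the same animals the summed level of 5 matched markers of striated muscle was 25.9 to 36.6 CPM in controls and 37.1 to 41.0 CPM in pregnant animals, with 1 of 4 tested, MYH7, higher and the muscle regulator MYOD1 at 0 reads. Of 6 smooth muscle markers 4 fell and 0 rose, beside 10.1% lower and 11.2% higher among all transcripts. The summed level of these markers was 679 to 1089 CPM in controls and 421 to 627 CPM in pregnant animals. The part of striated and smooth muscle in the values of TRIM63 was not tested.

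Both tested chromatin readers of the family, TRIM24 and TRIM66, did not pass with edgeR (21.3% of all transcripts did). At an unadjusted p under 0.05, by DESeq2 or by limma voom 0 passed. These 2 genes are too few to set apart from the share of all transcripts. TRIM24, a coregulator of nuclear receptors, had a log2 difference of 0.19 ± 0.19. TRIM66 was at 76.0, 75.2, 105 and 82.2 CPM in controls and 76.2, 124, 81.3 and 82.2 CPM in pregnant animals, with its highest value in pregnant replicate 2. The log2 difference of 0.10 ± 0.18 turned to −0.08 without that library. The TRIM66 model shares exonic bases with another gene on the opposite strand, and the TRIM32 model with ASTN2. Without strand, reads over the shared bases cannot be told apart from those of the partner genes. How much of the level of TRIM66 or TRIM32 this covers was not measured.

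Of the 3 tested members of the microtubule group, 0 passed with edgeR, 1 had an unadjusted p under 0.05, and DESeq2 and limma voom passed 0. With edgeR 21.3% of all transcripts passed, and 3 genes are too few to set apart from that share. TRIM36, a ligase that binds microtubules, was at 0.271, 0.359, 0.0664 and 0.229 CPM in controls and 0.354, 0.627, 0.629 and 0.641 CPM in pregnant animals. Pregnant replicate 1 overlapped the highest control by a margin below 0.01 CPM. The log2 difference was 1.26 ± 0.48 (edgeR adjusted p = 0.0854) on 30 control reads and 74 pregnant reads. Its second transcript, which shares most of these reads, passed with 1.60 ± 0.48 (adjusted p = 0.0382). TRIM9, a ligase of neurons, had a log2 difference of 1.01 ± 0.69 that was 0.04 without pregnant replicate 3. TRIM46, which bundles microtubules in axons, differed by 0.03 ± 0.39. Control and pregnant reads were 5 and 8 for TRIM42 and 6 and 7 for TRIM67, too few to test.

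The 3 members of other build did not pass, too few to set apart from the 21.3% of all transcripts that did. TRIM45, with a filamin-type domain, had a log2 difference of −0.29 ± 0.13 with a 95% interval of −0.58 to −0.003 and an edgeR adjusted p = 0.143. TRIM23, which joins a ligase to an ARF-type GTPase, differed by 0.13 ± 0.19 and TRIM59, anchored in membranes, by 0.56 ± 0.30, on 201 control reads and 294 pregnant reads. Of these 3, 0 passed with edgeR, DESeq2 or limma voom and 1 had an unadjusted p under 0.05. The second transcripts of TRIM45, TRIM23 and TRIM59 gave −0.29, 0.15 and 0.51.

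The 5 tested members left over, with a PRY-SPRY domain or a RING finger alone, gave log2 differences of −0.36 to 0.21. With edgeR, at an unadjusted p under 0.05, by DESeq2 or by limma voom 0 passed. Beside the 21.3% of all transcripts that passed with edgeR, 5 genes are too few to set apart. TRIM8, a regulator of cytokine signalling and one of the 3 members with the highest level per length, was at 85.2, 68.9, 75.0 and 90.3 CPM in controls and 104, 100.3, 83.1 and 82.1 CPM in pregnant animals. The groups overlapped, and the 95% interval of the log2 difference of 0.21 was −0.08 to 0.50. TRIM47 differed by −0.11 ± 0.15, TRIM35 by −0.17 ± 0.18 and TRIM62, an activator of CARD9 signalling, by −0.36 ± 0.21. TRIM50, a gene of acid-secreting stomach cells, had 2 control reads and 6 pregnant reads, and TRIM58, which acts in maturing red cells, 0 and 2. Across the 23 tested members that did not pass, log2 differences ran from −1.34 to 1.26. For 16 of them the 95% interval lay within a 2-fold change either way, so larger changes fell outside it, and the other 7 were not measured that closely.

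Levels were compared between members per kb of transcript. TRIM25 was highest in both groups, at 38.9 ± 7.51 CPM per kb in controls and 48.5 ± 7.61 in pregnant animals. TRIM8 (31.4), TRIM27 (26.1), TRIM26 (23.3) and TRIM66 (22.6 CPM per kb) followed in controls. In pregnant animals TRIM26 (37.6), TRIM8 (36.3), TRIM21 (29.0) and TRIM27 (26.5 CPM per kb) followed. TRIM21 stood at rank 11 of 38 in controls, at 11.0 CPM per kb, and at rank 4 in pregnant animals, and TRIM2 at rank 6 and rank 11. Most neighbours in this order could not be separated: the ranges of the 4 animals overlapped for 33 of 37 neighbouring pairs in controls and 35 in pregnant animals. The 10 highest members held 75.3% and 77.7% of the summed level per kb. The transcript length was a multiple of 3 for 20 of the 38 models, TRIM25, TRIM26, TRIM27 and TRIM21 among them, and such models may hold coding sequence alone while others include more, which shifts levels per length between genes.

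**Figure D3:**
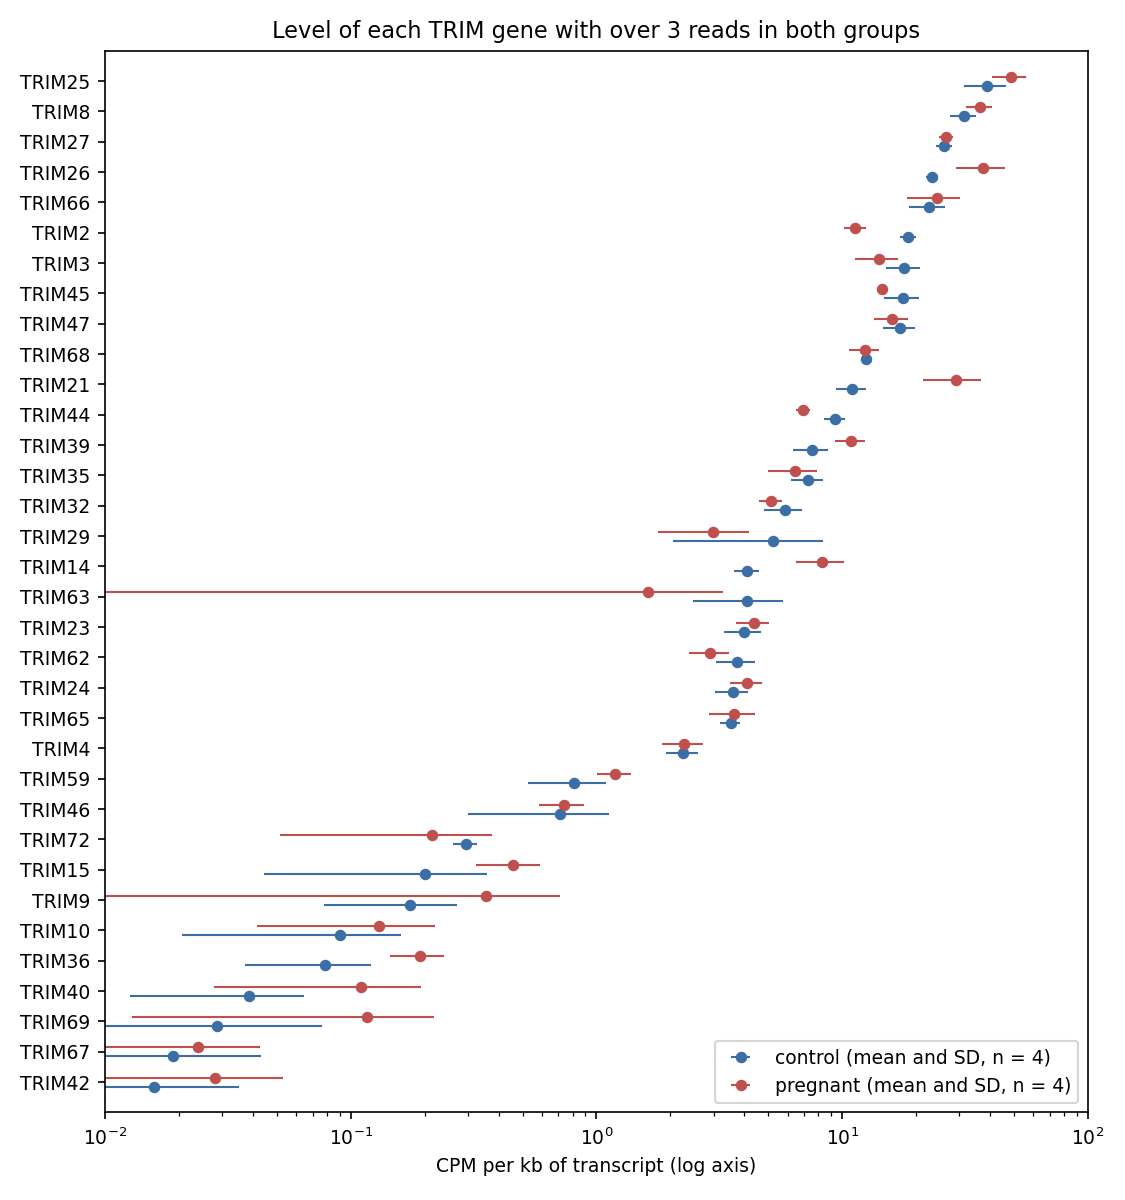
Level of each TRIM gene with more than 3 reads in both groups, in CPM per kb of transcript on a log axis, with mean and SD of 4 animals per group (an SD that reaches below the axis is clipped at its left edge). TRIM25 is highest in both groups, and TRIM21 moves from 11.0 to 29.0 CPM per kb.

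A further list held TRIM genes under other names together with genes of related proteins. Of its 7 tested genes, 1 rose, 2 fell and 4 did not pass, beside 11.2% higher and 10.1% lower among all transcripts. PML (TRIM19), the scaffold of nuclear bodies and an interferon-induced gene, was at 94.1 ± 20.8 CPM in controls and rose to 209 ± 43.2 CPM (1.15 ± 0.19 on the log2 scale, edgeR adjusted p = 0.00192). MID1 (TRIM18), a microtubule-bound ligase, fell from 24.1 ± 3.74 to 13.8 ± 3.02 CPM (−0.80 ± 0.18, adjusted p = 0.0108), while its close relative MID2 (TRIM1) had a log2 difference of 0.43 ± 0.17 that did not pass with edgeR (adjusted p = 0.0897) and passed with DESeq2 (0.0476). BSPRY, a related protein with a B-box and a SPRY domain, fell from 14.0 ± 2.37 to 7.76 ± 1.76 CPM (−0.85 ± 0.20, adjusted p = 0.0117).

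In the pathways in which antiviral TRIM proteins act, most tested genes rose (11.2% of all transcripts were called higher). Of 15 genes of cytosolic nucleic acid sensing 9 rose, 0 fell and 6 did not pass, with a median log2 change of 1.08. ZBP1, a sensor of Z-form nucleic acids, rose by 1.89 ± 0.24 and the transcription factor gene IRF7 by 2.54 ± 0.35. The RNA sensor genes IFIH1 (MDA5) and DHX58 (LGP2) rose by 1.80 ± 0.30 and 1.80 ± 0.31. The size of the rise differed between animals: the summed level of the list was 345 to 395 CPM in controls and 583 to 1180 CPM in pregnant animals. In the latter IRF7 was at 216 ± 106 and DHX58 at 115 ± 57.9 CPM (mean ± SD). DDX58, which encodes RIG-I, rose by 2.71 ± 0.45 (adjusted p = 0.00259). TRIM25, a ligase that acts on RIG-I, did not pass, and neither did TRIM4, another regulator of RIG-I. MAVS, the adaptor below these sensors, had a log2 difference of −0.36 ± 0.12 with edgeR (adjusted p = 0.0597), and passed with DESeq2 (0.0494) and without pregnant replicate 1 (0.0488). IKBKE, one of the 9, had an adjusted p of 0.0483 and lost its call under 9 of 14 alternatives, among them each library but control replicate 1 left out in turn (0.0538 to 0.122). MB21D1, another of the 9, lost its call without control replicate 3 (0.0524).

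All 4 matched genes of ISG15 conjugation rose, beside 11.2% of all transcripts, with a median log2 change of 1.90. The E1 gene UBA7 rose by 2.85 ± 0.26, the E2 gene UBE2L6 by 2.25 ± 0.20, the ligase gene HERC5 by 1.54 ± 0.34 and the protease gene USP18 by 1.12 ± 0.31. The call of USP18 was lost on leaving out control replicate 1 or 4 (adjusted p = 0.0813 and 0.0578). The enzymes that feed ubiquitin to RING ligases were also examined, among them UBE2D2, UBE2D3, UBE2N and the E1 gene UBA1. Of 12 tested, 0 passed with edgeR, beside 21.3% of all transcripts. At an unadjusted p under 0.05, by DESeq2 or by limma voom 0 passed as well. The summed level of these 12 was 679 to 718 CPM in controls and 677 to 722 CPM in pregnant animals. UBA1 held most of that sum, at 429 ± 27.8 CPM in controls and 391 ± 26.7 CPM in pregnant animals (log2 difference −0.13 ± 0.11). The E2 genes all had small positive log2 differences, from 0.05 for UBE2E3 to 0.31 for UBE2W, so the sum does not describe them. The median log2 change of the list was 0.12. Of 10 genes that work with TRIM28 in gene silencing, 1 rose and 1 fell, near the shares of all transcripts (11.2% higher and 10.1% lower). These were MORC3 (1.11 ± 0.33, adjusted p = 0.0338) and the remodeller gene CHD3 (−0.54 ± 0.13, adjusted p = 0.0123). The call of MORC3 was lost on leaving out control replicate 1, control replicate 2, pregnant replicate 3 or pregnant replicate 4 (adjusted p = 0.0517 to 0.0952).

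**Figure D4:**
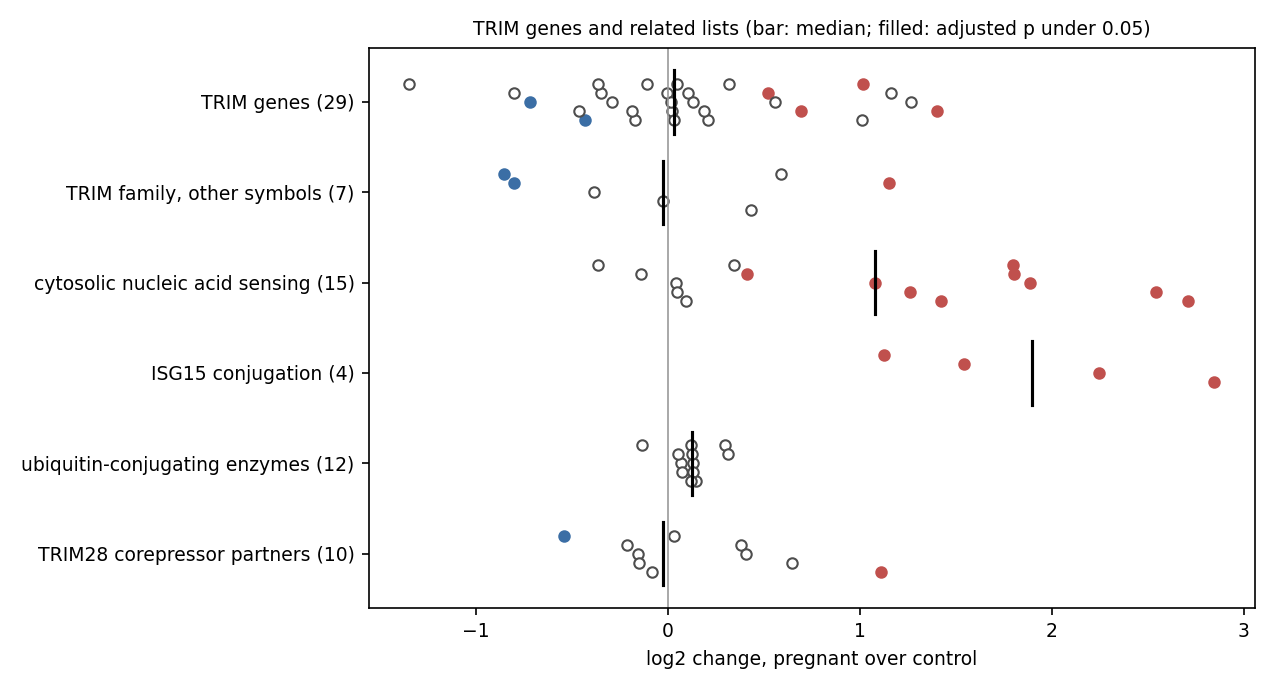
Log2 change (pregnant over control, x axis) of every tested gene of the TRIM set and of 5 related lists, with the number tested after each name, a bar at the median and filled points for genes that passed (red higher, blue lower). The TRIM genes centre on 0.03, sensing genes on 1.08 and ISG15 conjugation genes on 1.90.

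In whole tissue, more cells of a type and more RNA per cell cannot be told apart. Marker genes of cell types were compared between the same groups, and a relation to TRIM levels across animals was not tested. Beside each count that follows, 11.2% of all transcripts were higher and 10.1% lower. Of 9 T cell markers 8 rose, and their summed level was 26.4 to 72.5 CPM in controls and 92.9 to 165 CPM in pregnant animals. Of 8 natural killer and cytotoxic markers 7 rose (14.4 to 37.2 and 71.2 to 123 CPM), and of 9 macrophage and dendritic markers 7 rose and 1 fell (379.5 to 693 and 1124 to 1485 CPM). Of 5 B and plasma cell markers 2 rose (31.7 to 44.4 and 47.7 to 226 CPM). Of 7 epithelial markers 1 rose and 4 fell (2108 to 3111 and 1415 to 1938 CPM). Of 7 stromal markers 2 rose and 2 fell (23371 to 27924 and 14572 to 21553 CPM). Most of that sum came from COL3A1 (14899 ± 1327 and 9338 ± 1830 CPM, mean ± SD) and COL1A2 (8719 ± 659 and 7450 ± 1059 CPM). The median log2 change of the stromal list was 0.02. Of 5 endothelial markers 2 rose (598 to 1068 and 855 to 1163 CPM). Leaving out single libraries ended the calls of CD8A, NCR1, CD14, MRC1, JCHAIN, MZB1, COL3A1 and LUM among these markers (adjusted p = 0.0502 to 0.115). With a replicate block the calls of COL3A1 (0.0502), DPT (0.0612), NCR1 (0.0646) and JCHAIN (0.136) were lost, and COL3A1 and DPT are both stromal markers that fell. The part of these cells in the changes of TRIM21, TRIM14, TRIM26, TRIM39, TRIM2 and TRIM44 was not tested.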

How the data were processed

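Endometrial poly(A) RNA of 8 gilts was sequenced with a kit that does not mark strand. Per the file headers, the authors deposited raw counts for 24139 transcripts of a merged assembly, with 2 files of exon positions. CASAVA 1.6, TopHat 1.4, Cufflinks 1.3, DESeq and build Sscrofa10.2 are named in the submitters' processing notes, and the counting tool is not given in the sources used here. RNA integrity numbers were 7.0 to 8.8, per the labels.

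The RefSeq table of assembly Sscrofa11.1 gave symbols and nothing else (16270 of 21064 genes matched by Entrez ID). Coordinates are those of the deposited Sscrofa10.2 annotation. The test was edgeR 4.0.16 (R 4.3.3) with TMM scaling, filterByExpr at a minimum count of 10, a robust quasi-likelihood fit and group as sole term. Adjustment ran over 18783 transcripts, and SE follow from the F statistic. Alternatives were DESeq2 1.42.0, limma voom 3.58.1, RLE size factors, no filter, a replicate block, 1 transcript per gene, the lowest transcript and each library left out. The labels give no batch.

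The members, lists and tests were chosen with earlier results of these data known. Named with a value in every animal were members that passed, a few fixed genes and the 3 highest per length. TRIM27, TRIM29, TRIM36, TRIM63, TRIM66 and TRIM68 were added to these after their values were seen. DDX58, MAVS, IKBKE, MID2 and members of other lists beyond the 4 smallest p were also chosen then, as were the 4 neighbouring pairs tested.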

Additional observations from a re-analysis of the deposited data

Results flagged for a closer look

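In 4 of the 58 groups of 4 animals examined (29 tested members in each group), 1 animal lay far from the other 3: its gap to the nearest, divided by the range of the group, was above Dixon's 95% critical value. Chance flags about 1 group in 20. All 4 were among the pregnant animals.

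TRIM66 was at 124 CPM in pregnant replicate 2, with the other 3 at 76.2 to 82.2 CPM. TRIM68 was at 23.2 CPM in the same animal, with the others at 17.4 to 18.4 CPM, a gap only just beyond that limit. TRIM9 was at 2.05 CPM in pregnant replicate 3 and at 0.305 to 0.575 CPM in the others. TRIM36 was at 0.354 CPM in pregnant replicate 1 and at 0.627 to 0.641 CPM in the others.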

How the results depend on the processing

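TRIM21, TRIM14, TRIM26 and TRIM2 kept their direction and their call under all 14 alternatives, with log2 changes of 1.22 to 1.52, 0.87 to 1.13, 0.57 to 0.81 and −0.77 to −0.65. TRIM39 lost its call under 9 of 14 and TRIM44 under 5 of 14, and both kept their direction. The number of members higher was 4 and ran from 3 to 5. Of all transcripts 2111 were higher, and 1599 to 2647 under the alternatives with such a count. The number lower was 2 and ran from 1 to 3 with each library left out in turn. It was 1 on leaving out control replicate 2, control replicate 3 or any pregnant animal but replicate 3. Of all transcripts 1898 were lower, 1265 to 2017 with a library left out, and 1265 to 1620 where 1 member was lower. The number whose groups did not overlap was 6 (20.7% beside 26.1% of all transcripts). With each library left out it ran from 6 to 10 (20.7% to 34.5%), and was 10 without control replicate 4. The share of all transcripts was then 28.9% to 32.9%, so it rose as well. On unscaled library sizes the number was 7, for which no share of all transcripts is given. With the replicate block 3 members were higher and 2 lower, beside 2070 and 1813 of all transcripts. Same-numbered animals of the 2 groups did not deviate together (correlations 0.19, −0.09, −0.03 and 0.09 for numbers 1 to 4), and not every animal correlated best with its own number, so the numbers were not taken to pair the animals.

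Of 410 values of single members, 368 kept direction and call, 24 turned in sign, all in 7 members that did not pass, and 4 gained a call. TRIM68 (−0.01 as reported) gave 0.00439 with RLE size factors, 0.0112 without the filter, 0.00478 with DESeq2 and 0.000894 on 1 transcript per gene. With each library left out in turn, values ran from −0.11 to 0.0391 for TRIM68, −0.0228 to 0.0823 for TRIM27, −0.0826 to 0.225 for TRIM66, −0.1997 to 0.000762 for TRIM47, −0.0539 to 0.169 for TRIM65, −0.0811 to 0.122 for TRIM4 and −0.183 to 0.43 for TRIM46. The cause was not tested. The 9 members that were not tested had 0 to 45 reads over the 8 libraries, and low depth and low expression cannot be told apart there.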
